A study of Mus musculus with 8 samples.

Results

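Lrrc32 encodes GARP, a membrane protein that holds latent TGF-beta on the cell surface, and was described here together with the genes of the TGF-beta ligands (Tgfb1, Tgfb2, Tgfb3), their receptors (Tgfbr1, Tgfbr2, Tgfbr3) and the latent TGF-beta binding proteins (Ltbp1, Ltbp2, Ltbp3). The members were taken by gene symbol, and all 10 were found among the 26667 genes of the count table. Lrrc32 had been picked for its low level in HIF-2alpha-deficient tumours in these same libraries, so its difference is given as a description without a test, while the other 9 members were added for their place in the pathway.

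RNA was measured in undifferentiated pleomorphic sarcomas (UPS) of the mouse hind limb. KP tumours (KP 5 to KP 8) came from mice of the KP strain, which carry Trp53 fl/fl, and KPH2 tumours (KPH2 1 to KPH2 4) from mice with the KP alleles and floxed Epas1 (Epas1 fl/fl), the gene of HIF-2alpha. Tumours of both groups were started in adult mice of a mixed 129/C57BL/6 background by injecting an adenovirus that expresses Cre recombinase (Ad-Cre) into the leg muscle, so the alleles recombine only in infected cells and the host cells inside a KPH2 tumour keep Epas1. Each of the 8 libraries was made from sections of a separate formalin-fixed, paraffin-embedded tumour, with ribosomal RNA removed, and held between 6463221 and 13155510 counted reads. The study's methods set 1 knockout tumour aside for technical reasons, and KPH2 1 is absent from the authors' table for 7 tumours. The comparison was therefore made between the 4 KP tumours and KPH2 2, 3 and 4, with KPH2 1 given apart. Levels are counts per 1e+06 counts (CPM) of TMM library size, which applies a scale factor to each library and leaves differences in tissue make-up in place.

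TGF-beta is secreted in a latent form, wrapped in its own propeptide and tethered either to the matrix by latent TGF-beta binding proteins or to a cell surface by GARP or its relative LRRC33. Integrins and proteases release the ligand, which binds the type II receptor TGFBR2, and TGFBR2 then phosphorylates the type I receptor TGFBR1 and through it the SMAD2 and SMAD3 transcription factors. GARP is known from activated regulatory T cells, platelets, endothelial cells and some mesenchymal cells, and in solid tumours TGF-beta is known for shaping the matrix and restraining immune cells.

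HIF-2alpha binds DNA with its partner ARNT at short cores, ACGTG or GCGTG, and these letters were searched on both strands of the 250 bases before the transcript starts that RefSeq gives for GRCm38.p6. A start window was at hand for 7 of the 10 members, and not for Lrrc32, Tgfb3 or Tgfbr3. At least 1 core was found in 6 of the 7, with Ltbp3 as the exception, against 41.5% of all 27025 genes with a window. The motif search overlaps with the E-box CACGTG, which many other factors bind, and the base content of the members' windows ran from 47.2% to 75.2% G and C against a median of 52.4% over all windows. The windows of Tgfb1 (chr7:25686752-25687001, plus strand), Tgfbr1 (chr4:47352972-47353221, plus strand) and Tgfbr2 (chr9:116175364-116175613, minus strand) are printed because they hold a core and lie wholly outside the gene's own RefSeq span, with capitals on GCGTG or its reverse complement CACGC. Each match is a description of the letters and not of a bound site.
Tgfb1: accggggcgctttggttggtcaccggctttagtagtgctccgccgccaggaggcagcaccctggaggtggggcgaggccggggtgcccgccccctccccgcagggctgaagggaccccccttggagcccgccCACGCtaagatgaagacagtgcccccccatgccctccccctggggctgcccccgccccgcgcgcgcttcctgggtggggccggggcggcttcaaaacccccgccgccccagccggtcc
Tgfbr1: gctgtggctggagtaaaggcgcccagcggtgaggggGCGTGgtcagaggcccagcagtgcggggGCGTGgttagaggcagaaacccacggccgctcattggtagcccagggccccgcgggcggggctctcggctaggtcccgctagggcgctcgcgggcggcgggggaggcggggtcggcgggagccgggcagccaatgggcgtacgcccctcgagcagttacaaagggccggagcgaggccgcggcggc
Tgfbr2: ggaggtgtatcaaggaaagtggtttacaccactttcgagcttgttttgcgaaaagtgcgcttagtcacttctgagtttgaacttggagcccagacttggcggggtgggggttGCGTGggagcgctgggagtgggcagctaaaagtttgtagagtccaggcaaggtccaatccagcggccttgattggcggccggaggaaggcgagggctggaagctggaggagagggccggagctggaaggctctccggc

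The targeted gene was examined before the members. The level of Epas1 (Entrez Gene 13819, chr17:86753864-86833410 of GRCm38) was 59.2, 83.2, 86.9 and 84.1 CPM across KP 5 to 8, given in that order here and throughout, and 53.4, 37.7 and 42.5 CPM across KPH2 2 to 4. KPH2 1 held 32.6 CPM, below all the others, and the groups did not overlap with or without it. The log2 fold change (KPH2 minus KP) was -0.81 ± 0.19 (SE), with an adjusted p of 0.0742 by edgeR's quasi-likelihood test and Benjamini-Hochberg correction. Reads from host cells and from the parts of the gene outside the deleted stretch are counted in these values. In such bulk tissue fewer cells of a type and less RNA per cell cannot be told apart for any gene described here.

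Lrrc32 (Entrez Gene 434215, chr7:98489305-98501831) was at a similar level in all KP tumours and lower in all KPH2 tumours. Its level was 35.9, 38.6, 43.4 and 41.9 CPM across KP 5 to 8. Across KPH2 2 to 4 it was 9.54, 11.5 and 8.57 CPM. KPH2 1 held 15.3 CPM, below every KP tumour and above the other KPH2 tumours. It was not in the 7-tumour contrast that singled the gene out. The KP values set against it are those the choice used, so it is no outside check. The KP mean of 40.0 ± 3.35 CPM (SD, n = 4) was 4.05 times the mean of 9.87 ± 1.499 CPM (SD, n = 3) in KPH2 2 to 4, and 2.60 times the level in KPH2 1. The fitted log2 fold change was -2.02 ± 0.17 (SE) without KPH2 1 and -1.83 ± 0.20 with it. These values rest on 76 to 555 reads per library, which gives a counting error between 4.24% and 11.5% of the level. The coefficient of variation of Lrrc32 among KP tumours was 8.38%, against a median of 22.7% over all tested genes, but these are values that the choice of the gene used. Among the 10 members it was the only one whose groups were apart both with and without KPH2 1. Groups were apart in 16.9% of all 14867 tested genes without KPH2 1 (8.15% with KPH2 lower) and in 8.21% with it (4.46% with KPH2 lower), and since Lrrc32 was chosen from this contrast nothing is read from these shares.

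**Figure D1:**
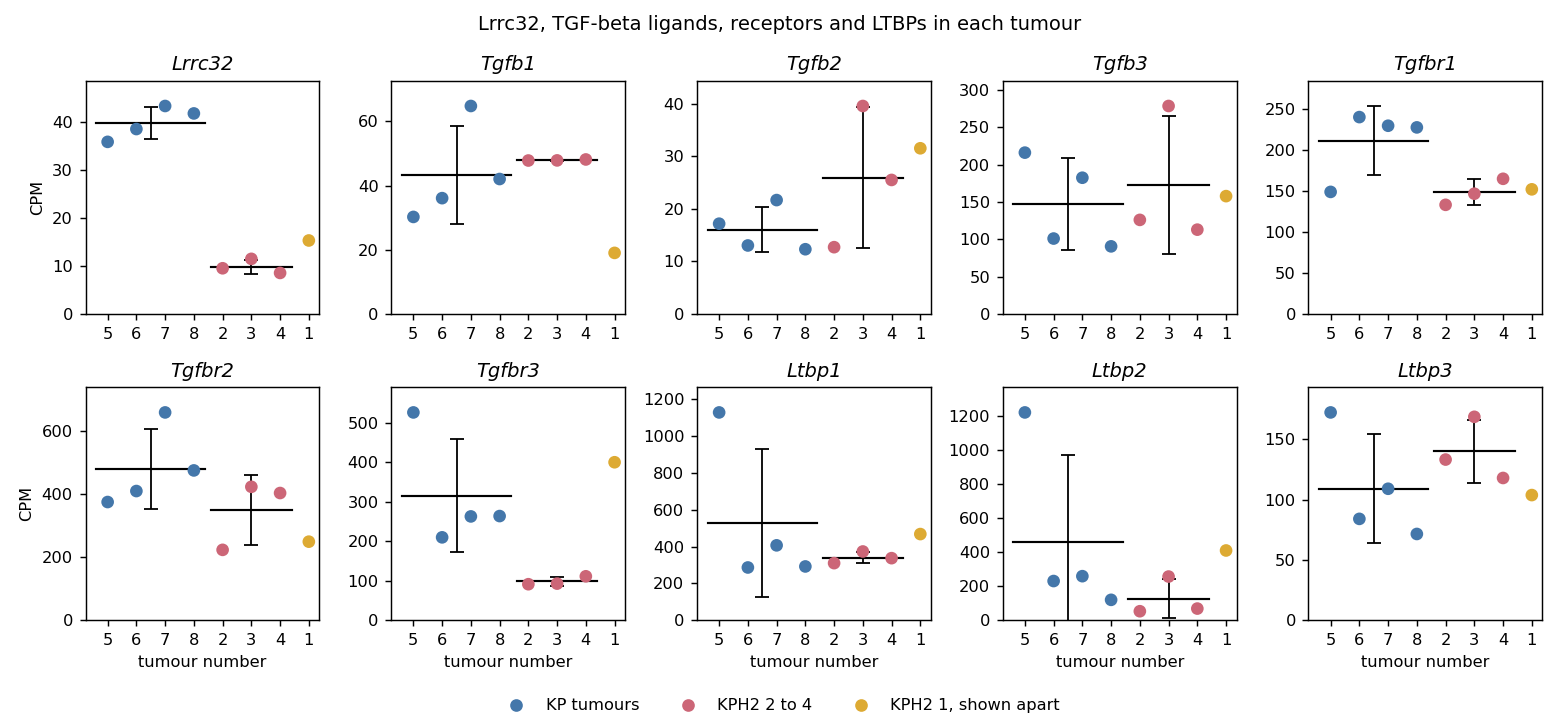
Level of each of the 10 members in every tumour, in CPM on a linear axis that starts at 0, by tumour number (blue, KP 5 to 8; red, KPH2 2 to 4; yellow, KPH2 1). Lines are means and bars SD (n = 4 and n = 3, lower ends below 0 not drawn). Lrrc32 lies between 35.9 and 43.4 CPM in KP and between 8.57 and 15.3 CPM in all KPH2 tumours, while KP 5 stands above the others for Tgfbr3, Ltbp1 and Ltbp2.

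Of the 9 members that were not chosen for their difference, 1, Tgfbr3, passed an adjusted p of 0.05, against 1.96% of all tested genes, and with KPH2 1 in the fit none of the 9 did, against 0.00675% of all genes tested there. In that fit Tgfb2 and Tgfbr1 had an unadjusted p below 0.05, as did 14.7% of all genes tested there. DESeq2, run as a second tool, called Tgfbr3 over the 7 tumours, where it called 6.97% of the genes it tested, and none of the 9 over all 8, where it called 3.91%. All 10 members passed the filter on low counts. Apart from Lrrc32 their log2 fold changes had a negative sign in 5 and a positive sign in 4, with a median of -0.46 against -0.02 over all tested genes. At an unadjusted p of 0.05 Tgfbr1 and Tgfbr3 passed among the 9, both with a negative sign, where 17.8% of all tested genes did, 9.26% with a negative and 8.50% with a positive sign.

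**Figure D2:**
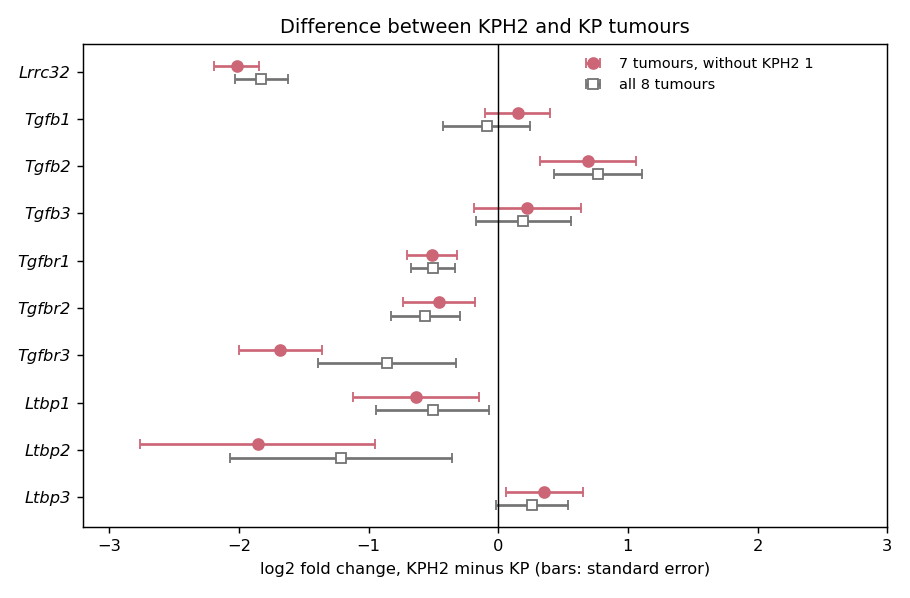
Fitted log2 fold change of each member, KPH2 minus KP, with its standard error, over 7 tumours (red) and all 8 (grey squares). Tgfbr3 moves from -1.68 to -0.86 when KPH2 1 is added, while Lrrc32 moves from -2.02 to -1.83.

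Among the ligands, none passed the test over the 7 tumours by DESeq2 or by edgeR, there also without adjustment. Tgfb1 (Entrez Gene 21803, chr7:25687002-25705077), the ligand most abundant in immune cells and platelets, stood at 30.2, 36.1, 64.8 and 42.0 CPM across KP 5 to 8. Across KPH2 2 to 4 it stood at 47.8, 47.8 and 48.1 CPM, and in KPH2 1 at 19.0 CPM. The KPH2 2 to 4 values fell inside the KP range and differed from each other by less than counting error, with a coefficient of variation of 0.374% against a counting error of at least 4.34% in each library, while KPH2 1 was below all 7 other tumours. The log2 fold change of Tgfb1 was 0.15 ± 0.25 (SE, edgeR adjusted p = 0.814), 0.0194 without KP 5, 0.0703 without KP 6, 0.41 without KP 7 and -0.09 ± 0.34 with KPH2 1.

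Tgfb2 (Entrez Gene 21808, chr1:186622787-186709697), a ligand that relies on TGFBR3 for strong binding, was at 17.2, 13.0, 21.6 and 12.3 CPM across KP 5 to 8 and at 12.7, 39.5 and 25.5 CPM across KPH2 2 to 4. KPH2 1 held 31.5 CPM. KPH2 1, 3 and 4 were above every KP tumour and KPH2 2 was inside the KP range, so the groups overlapped. Its log2 fold change was 0.69 ± 0.37 (SE, edgeR adjusted p = 0.382), and ranged from 0.25 without KPH2 3 to 1.02 without KPH2 2. Tgfb3 (Entrez Gene 21809, chr12:86056743-86079041), a ligand of mesenchymal and muscle tissue, was at 216, 101, 182 and 90.6 CPM across KP 5 to 8 and at 126, 279 and 113 CPM across KPH2 2 to 4, with 158 CPM in KPH2 1. The groups overlapped almost entirely, and the log2 fold change was 0.22 ± 0.41 (SE, edgeR adjusted p = 0.835). Without KPH2 3, the highest tumour, it was -0.30.

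Among the receptors, Tgfbr3 fell in KPH2 2 to 4, while the signalling pair Tgfbr1 and Tgfbr2 had lower means without passing the test. Tgfbr3 (Entrez Gene 21814, chr5:107106567-107289629) encodes betaglycan, a co-receptor that presents ligand and, once shed, sequesters it. It was at 526, 210, 263 and 264 CPM across KP 5 to 8 and at 91.5, 93.0 and 111 CPM across KPH2 2 to 4. The 2 groups were apart, with the lowest KP tumour well above the highest of these KPH2 tumours. KPH2 1 did not share this pattern, since its 399.8 CPM lay inside the KP range. The KP mean of 316 ± 142 CPM (SD, n = 4) was 3.20 times that of 98.6 ± 11.1 CPM (SD, n = 3) in KPH2 2 to 4, with a log2 fold change of -1.68 ± 0.32 (SE) and an edgeR adjusted p of 0.0425. With KPH2 1 in the fit the log2 fold change was -0.86 ± 0.53 (SE, edgeR adjusted p = 0.490). Leaving out each of the 7 tumours in turn gave edgeR adjusted p-values between 0.0172, without KP 5, and 0.151, without KPH2 2, and the call was lost without each tumour other than KP 5. The size varied less in those fits, between -1.83 and -1.31.

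Tgfbr1 (Entrez Gene 21812, chr4:47353222-47414926), the type I receptor kinase, was at 149, 241, 230 and 228 CPM across KP 5 to 8 and at 133, 147 and 165 CPM across KPH2 2 to 4. KPH2 1 held 152 CPM, beside the other KPH2 tumours, and KP 5 lay among the KPH2 tumours rather than with the other KP tumours. The log2 fold change was -0.51 ± 0.19 (SE), with an edgeR adjusted p of 0.210. Tgfbr2 (Entrez Gene 21813, chr9:116087695-116175363), the type II receptor kinase that binds the ligand, was at 375, 410, 659 and 475 CPM across KP 5 to 8. It was at 223.5, 423 and 404 CPM across KPH2 2 to 4 and at 249 CPM in KPH2 1. KPH2 1 and KPH2 2 were below all KP tumours and the other KPH2 tumours were among them, with a log2 fold change of -0.46 ± 0.28 (SE, edgeR adjusted p = 0.444), which was -0.27 without KP 7 and -0.21 without KPH2 2.

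The latent TGF-beta binding proteins were dominated by the spread among KP tumours, and none passed the test by edgeR, adjusted or not, or by DESeq2. Ltbp1 (Entrez Gene 268977, chr17:75005480-75392512), which binds the latent complex covalently and anchors it in the matrix, was at 1127, 287, 407 and 292 CPM across KP 5 to 8. It was at 310, 373 and 337 CPM across KPH2 2 to 4 and at 468 CPM in KPH2 1. Apart from KP 5 the KP tumours bracketed KPH2 2 to 4, and the log2 fold change of -0.64 ± 0.49 (SE, edgeR adjusted p = 0.552) became 0.06 without KP 5.

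Ltbp2 (Entrez Gene 16997, chr12:84783212-84876558), a microfibril protein that, unlike its relatives, does not bind latent TGF-beta, was the most variable member. It was at 1220, 231, 259 and 121 CPM across KP 5 to 8, at 53.7, 257 and 69.3 CPM across KPH2 2 to 4, and at 410 CPM in KPH2 1. The highest KP tumour held 10.1 times the level of the lowest, KPH2 3 lay among the KP tumours, and 98.5% of tested genes varied less among KP tumours. The log2 fold change of Ltbp2 was -1.86 ± 0.90 (SE, edgeR adjusted p = 0.334), with -0.68 without KP 5 and -2.90 without KPH2 3. Ltbp3 (Entrez Gene 16998, chr19:5740900-5758536), which also carries the latent complex, was at 172, 84.0, 109 and 71.5 CPM across KP 5 to 8, at 133, 169 and 118 CPM across KPH2 2 to 4, and at 104 CPM in KPH2 1. KPH2 2 to 4 were above every KP tumour but KP 5, and the log2 fold change was 0.35 ± 0.30 (SE, edgeR adjusted p = 0.591), and 0.68 without KP 5 (edgeR adjusted p = 0.138).

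Levels were also divided by transcript length, so that members could be ranked against each other in CPM per kb of the longest RefSeq-matched transcript. In KP tumours Ltbp1 stood highest at 79.2 ± 60.4 CPM per kb (SD, n = 4), followed by Ltbp2 at 69.3 ± 77.5, Tgfbr2 at 59.3 ± 15.6, Tgfbr3 at 51.8 ± 23.4, Tgfb3 at 43.6 ± 18.2 and Tgfbr1 at 36.8 ± 7.34. Those 6 lay within each other's spread step by step, and KP 5 set the head of the order. Over KP 6 to 8 Tgfbr2 stood highest with a mean of 63.6 CPM per kb, before Ltbp1 at 49.3, and Ltbp2 at 30.8 was below Tgfbr1, Tgfbr3 and Tgfb3. Ltbp3 at 21.0 ± 8.63 and Tgfb1 at 19.9 ± 6.95 CPM per kb also differed by less than their spread, and Lrrc32 at 10.5 ± 0.878 and Tgfb2 at 3.13 ± 0.843 CPM per kb closed the order, each below its neighbour by more than the SD. Among the ligands, Tgfb3 RNA was thus the most abundant per length, ahead of Tgfb1 in 4 of 4 KP tumours and 4 of 4 KPH2 tumours. In KPH2 2 to 4 Lrrc32 at 2.59 ± 0.393 CPM per kb (SD, n = 3) was last by its mean, next to Tgfb2 at 5.06 ± 2.62, from which it differed by less than the SD of Tgfb2 and with which it was level in KPH2 2, and Tgfbr3 at 16.2 ± 1.83 stood eighth. Tgfb1 was at 22.03 ± 0.0824 CPM per kb there, next below Tgfbr1 at 25.8 ± 2.77 and Ltbp3 at 26.9 ± 5.005, which differed from each other by less than their spread.

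The other genes of the pathway were taken as 8 lists of 85 genes in all, of which 78 were tested. At an adjusted p of 0.05, 4 of the 78 (5.13%) were lower in KPH2 2 to 4 and none was higher, against 0.720% lower and 1.24% higher over all tested genes. DESeq2 called 13 of them over the same tumours, of which 1, Itgb6, was higher, and 1166 genes (6.97%) in all. Their median log2 fold change was -0.31, with a negative sign in 55 genes and a positive sign in 23. Over all tested genes the sign was negative in 7724 and positive in 7143. With KPH2 1 included none of them passed by edgeR and 9 did by DESeq2, which called 641 genes (3.91%) in all, and 22 had an unadjusted edgeR p below 0.05, against the 14.7% of all genes given above.

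Of the 7 partners of the latent complex, 6 had a negative log2 fold change and none passed the test by edgeR, with 3 below an unadjusted p of 0.05 (17.8% of all tested genes) and 1, Lrrc33, called by DESeq2 (6.97% of all). Lrrc33, the nearest relative of Lrrc32, whose product holds latent TGF-beta on macrophages and microglia, came closest. It was at 62.3, 74.3, 82.9 and 109.5 CPM across KP 5 to 8, at 39.4, 33.1 and 44.9 CPM across KPH2 2 to 4 and at 37.5 CPM in KPH2 1. All KPH2 tumours were below all KP tumours for Lrrc33, and its log2 fold change was -1.07 ± 0.22 (SE) with an edgeR adjusted p of 0.0505, while the 16 alternative fits called it in 6. Hsp90b1, the chaperone that GARP and integrins need for folding, had a log2 fold change of -0.49 ± 0.20 (SE, edgeR adjusted p = 0.251), and Fbn1, the fibrillin to which latent complexes attach, one of -0.87 (edgeR adjusted p = 0.258).

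Of the 11 activators, the integrin subunit Itgb3 and the gelatinase Mmp2 fell in KPH2 2 to 4 by edgeR, as did 0.720% of all tested genes. DESeq2 called 3 of the 11, where it called 6.97% of all. An unadjusted edgeR p below 0.05 was found for 7, with a negative sign in 5 and a positive sign in 2, against 17.8% of all tested genes. Itgb3, whose integrin pulls on the latent complex, was at 79.9, 119, 134 and 103 CPM across KP 5 to 8, at 56.0, 32.1 and 38.3 CPM across KPH2 2 to 4 and at 81.6 CPM in KPH2 1. Its log2 fold change was -1.37 ± 0.25 (SE, edgeR adjusted p = 0.0377), with KPH2 2 to 4 below every KP tumour and KPH2 1 inside the KP range. Mmp2, which can release the ligand by cleavage, was at 354, 752, 751 and 487 CPM across KP 5 to 8, at 184, 255 and 150.2 CPM across KPH2 2 to 4 and at 426 CPM in KPH2 1. It had a log2 fold change of -1.58 ± 0.32 (SE, edgeR adjusted p = 0.0491) and was again within the KP range in KPH2 1. Both calls were lost with KPH2 1 in the fit, at edgeR adjusted p-values of 0.184 for Itgb3 and 0.215 for Mmp2, while DESeq2 called both there. Both edgeR calls were also lost when any of the 7 tumours other than KP 5 was left out, with adjusted p-values up to 0.112 for Itgb3 and 0.163 for Mmp2. Itgb1, the most abundant activator subunit, had a log2 fold change of 0.20 (edgeR adjusted p = 0.741). Itgb6 and Itgb8, named after their values were seen because they are the main epithelial and immune activators of latent TGF-beta and had the opposite sign, were at 2.32 and 0.85 with edgeR adjusted p-values of 0.124 and 0.182. Itgb6 was at 2.15, 4.67, 0.593 and 1.36 CPM across KP 5 to 8 and at 9.45, 18.6 and 4.62 CPM across KPH2 2 to 4. KPH2 1 held 0.400 CPM of Itgb6 on 5 reads, below every KP tumour. The groups of KP and KPH2 2 to 4 overlapped for both genes.

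All 4 matrix binders and all 5 accessory receptors had negative log2 fold changes, and none of the 9 passed the test by edgeR. An unadjusted p below 0.05 was found for 2 matrix binders and 3 accessory receptors, and DESeq2 called Dcn, Bgn, Acvrl1 and Eng, where 17.8% of all tested genes had such a p and DESeq2 called 6.97%. The matrix proteoglycans Dcn and Bgn, which bind TGF-beta outside the cell, were at -1.89 (edgeR adjusted p = 0.122) and -1.04 (edgeR adjusted p = 0.160). Acvrl1, the endothelial type I receptor ALK1, was at 25.1, 25.3, 27.1 and 25.4 CPM across KP 5 to 8, at 15.8, 16.9 and 15.4 CPM across KPH2 2 to 4, and at 8.31 CPM in KPH2 1. Its groups did not overlap, and its log2 fold change was -0.68 ± 0.14 (SE, edgeR adjusted p = 0.0561). Eng, its endothelial co-receptor endoglin, was at -1.05 ± 0.30 (SE, edgeR adjusted p = 0.119), and Cd109, an inhibitory co-receptor and the most abundant of the list, at -0.40 (edgeR adjusted p = 0.631).

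The SMADs and their regulators lay close to 0. Of the 13, 7 had a positive and 6 a negative log2 fold change, between -0.23 for Smad2, a receptor-activated SMAD, and 0.36 for the ubiquitin ligase Smurf1, and none had an unadjusted p below 0.05 by edgeR or was called by DESeq2. Of the 24 TGF-beta response genes 20 had a negative sign, as did 7724 of all 14867 tested genes. By edgeR 1 of them, Tgfbi, fell, as did 0.720% of all. An unadjusted p below 0.05 was found for 5 of the 24, all with a negative sign. Over all tested genes 17.8% had such a p, 9.26% with a negative sign. Tgfbi, a secreted matrix protein named for its induction by TGF-beta, was at 1586, 832, 772 and 821 CPM across KP 5 to 8, at 324, 252 and 266 CPM across KPH2 2 to 4 and at 334 CPM in KPH2 1. All KPH2 tumours were below all KP tumours for Tgfbi, with a log2 fold change of -1.84 ± 0.29 (SE, edgeR adjusted p = 0.0258), and of -1.77 with an edgeR adjusted p of 0.0757 over all 8 tumours. The edgeR call was also lost without KP 7 and without each of KPH2 2 to 4, with adjusted p-values up to 0.0837. By edgeR the other response genes did not pass, while DESeq2 also called Ctgf and Lox over the 7 tumours and Lox over all 8. DESeq2 called 6.97% of the genes it tested over the 7 tumours and 3.91% over all 8. Those without a call by either tool included Skil, a feedback inhibitor of SMADs, at -0.05 (edgeR adjusted p = 0.942) and Fn1, fibronectin and the most abundant of the list, at -0.26 (edgeR adjusted p = 0.858).

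Of the 14 other ligands of the superfamily 10 were tested and 1, Gdf10, fell by edgeR, which called 1.96% of all tested genes. DESeq2, which called 6.97%, also called Bmp6 lower over the same tumours. An unadjusted edgeR p below 0.05 was found for 2 of the 10, against 17.8% of all tested genes. Gdf10, a BMP-like factor of mesenchymal tissue, was at 3.86, 1.41, 3.56 and 1.81 CPM across KP 5 to 8 and at 0.180, 0.5004 and 0.225 CPM across KPH2 2 to 4, with 0.400 CPM in KPH2 1. Its groups were apart with and without KPH2 1, on very few reads in the KPH2 libraries. The log2 fold change was -3.10 ± 0.59 (SE, edgeR adjusted p = 0.0415) over the 7 tumours and -2.98 over all 8, where edgeR lost the call (adjusted p = 0.1001) and DESeq2 made it. The edgeR call was also lost when any tumour was left out, with no adjusted p below 0.0537. Bmp2, the most abundant of these ligands by its mean over all 8 tumours but below Inhba in 5 of them, was at -1.13 (edgeR adjusted p = 0.414). Of the 9 other receptors 6 were tested and none passed by edgeR (1 by unadjusted p, against 17.8% of all tested genes) or DESeq2. Acvr1b, an activin receptor, was at -0.94 (edgeR adjusted p = 0.185) and the BMP receptors Bmpr2 and Bmpr1a were at 0.32 and 0.24 (edgeR adjusted p = 0.327 and 0.421).

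**Figure D3:**
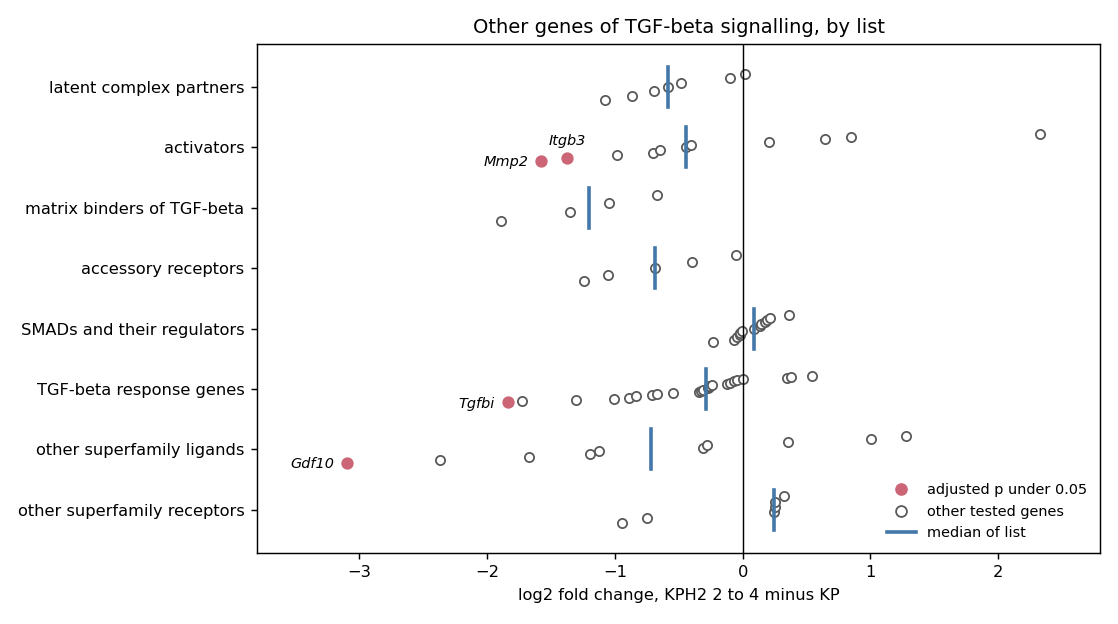
Log2 fold change, KPH2 2 to 4 minus KP, of each tested gene outside the members, in 8 lists of the pathway (filled, adjusted p below 0.05; bar, median of the list). The 4 filled genes, Gdf10, Tgfbi, Mmp2 and Itgb3, all lie below 0, and the SMADs and their regulators lie between -0.23 and 0.36.

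Lists of markers for the cells known to carry GARP, and for other cells of a limb tumour, were summed in each tumour, and the tissue label was checked on them. No listed marker was at 0 in all 8 tumours, and the mesenchymal sum was 12729 to 24716 CPM in KP, 9900 to 17436 CPM in KPH2 2 to 4 and 10715 CPM in KPH2 1. Of its 9 genes 6 had a negative and 3 a positive log2 fold change, and 1 passed the edgeR test, against 1.96% of all tested genes. That gene was the fibroblast receptor gene Pdgfra, named after its values were seen, at 1494, 923, 720.5 and 849 CPM across KP 5 to 8, at 224, 274 and 239 CPM across KPH2 2 to 4 and at 639 CPM in KPH2 1. All KPH2 tumours were below all KP tumours for Pdgfra, with a log2 fold change of -2.02 ± 0.27 (SE, edgeR adjusted p = 0.0183), and of -1.54 with an edgeR adjusted p of 0.160 over all 8 tumours. The regulatory T cell sum was 36.6 to 66.7 CPM in KP, 31.9 to 49.1 CPM in KPH2 2 to 4 and 24.5 CPM in KPH2 1. Foxp3, the factor that defines these cells, was between 1.56 and 3.34 CPM in KP and between 1.80 and 2.93 CPM in KPH2 2 to 4, on few reads, and its groups overlapped. The platelet sum was 36.8 to 68.6 CPM in KP, 24.3 to 34.5 CPM in KPH2 2 to 4 and 32.1 CPM in KPH2 1. Pf4 made up most of it in KP 6 to 8, and without Pf4 the sum overlapped, at 7.55 to 21.6 CPM in KP and 8.91 to 15.7 CPM in KPH2 2 to 4. Of its 9 genes 5 were tested, 4 with a negative and 1 with a positive log2 fold change, and none passed by edgeR or DESeq2 over the 7 tumours. Pf4 (-1.03) and Gp5 (1.37) were below an unadjusted edgeR p of 0.05, as were 17.8% of all tested genes. DESeq2 over all 8 tumours called Pf4 lower, where it called 3.91% of the genes it tested.

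The endothelial sum moved in the same direction as Lrrc32, by less. It was 361 to 622 CPM in KP, 305 to 341 CPM in KPH2 2 to 4 and 258 CPM in KPH2 1, so all KPH2 tumours were below all KP tumours. The KP mean was 1.55 times that of KPH2 2 to 4. All 10 of its genes had a negative log2 fold change, and none passed the test by edgeR, with 5 below an unadjusted p of 0.05 and 3 called by DESeq2, against 17.8% and 6.97% of all genes. Over all 8 tumours none passed by edgeR, 9 had an unadjusted p below 0.05 and 4 were called by DESeq2, against 14.7% and 3.91%. For 5 of the 10 all KPH2 tumours were below all KP tumours, as for 4.46% of all tested genes. Lrrc32 amounted to 9.95%, 6.21%, 8.03% and 8.53% of the endothelial sum across KP 5 to 8, to 2.89%, 3.78% and 2.51% across KPH2 2 to 4 and to 5.95% in KPH2 1. Against each of the 7 lists the ratio of Lrrc32 was lower in KPH2 2 to 4 than in every KP tumour. This was largely set in advance, since Lrrc32 was chosen for its low level and no marker sum fell as far. Nothing is read from these ratios about a change beyond the cell types. KPH2 1 lay inside the KP range against the pericyte list (5.09%, with 4.62% to 8.01% in KP). It was just below the lowest KP tumour against the regulatory T cell list (62.7% and 62.8%), the mesenchymal list (0.143% and 0.145%), the macrophage list (1.41% and 1.496%) and the skeletal muscle list (1.08% and 1.15%), and further below it against the platelet list (47.8% and 56.3%). The macrophage sum, which bears on Lrrc33, was 1314 to 2581 CPM in KP, 837 to 1415 CPM in KPH2 2 to 4 and 1086 CPM in KPH2 1, with all 8 genes lower in sign and none past the edgeR test. Of the 8 genes 4 were below an unadjusted p of 0.05 and 1 was called by DESeq2, against 17.8% and 6.97% of all genes. Over all 8 tumours these counts were 6 and 1, against 14.7% and 3.91%, with none called by edgeR. The pericyte sum overlapped, at 523 to 940 CPM in KP, 415 to 847 CPM in KPH2 2 to 4 and 301 CPM in KPH2 1. The skeletal muscle sum ran the other way, from 1734 to 3129 CPM in KP and from 4102 to 18431 CPM in KPH2 2 to 4, against 1417 CPM in KPH2 1. All 15 of its genes had a positive sign and an unadjusted edgeR p below 0.05, and 2 of them, Eno3 and Neb, were called by edgeR and 12 by DESeq2. Over all genes 17.8% had such a p, edgeR called 1.96% and DESeq2 6.97%. With KPH2 1 in the fit 10 of the 15 had such a p, none was called by edgeR and 5 were by DESeq2. Over all genes those shares were 14.7%, 0.00675% and 3.91%. The part of these cell types in the members' differences was not tested. In a fit with the muscle score as a covariate, where edgeR called 3 genes in all, the call of Tgfbr3 was lost (log2 fold change -1.97, edgeR adjusted p = 0.324). In the same fit the log2 fold change of Tgfbr1 was -0.13, that of Tgfbr2 -0.17, that of Tgfb1 0.49, that of Ltbp1 -1.30 and that of Ltbp2 -3.72.

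**Figure D4:**
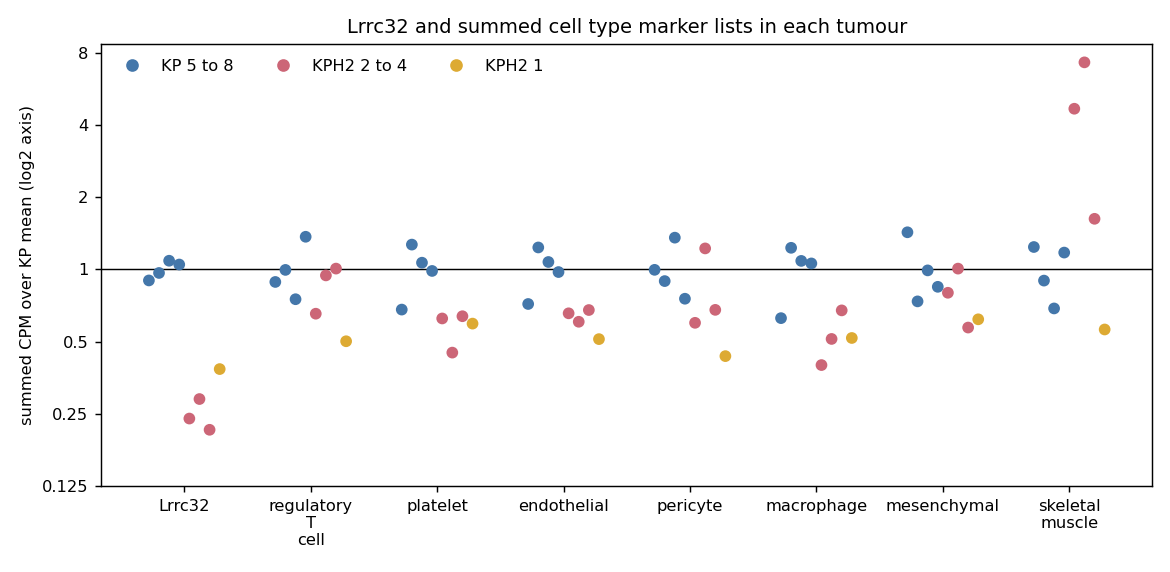
Lrrc32 and the summed CPM of 7 cell type marker lists in each tumour, divided by the mean of the 4 KP tumours, on a log2 axis (blue, KP 5 to 8; red, KPH2 2 to 4; yellow, KPH2 1). The endothelial sums of all KPH2 tumours lie below every KP tumour and their macrophage sums below most. Both lie nearer to the KP mean than Lrrc32, which was chosen for its low level. The muscle sum of KPH2 2 to 4 averages 4.54 times that of KP.

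The genes next to Lrrc32 on chromosome 7 are given as a description, since Lrrc32 was chosen for its difference and they were not. Within 500 kb on either side 12 protein-coding genes are annotated and 9 were tested. None passed an adjusted p of 0.05 by edgeR or DESeq2, which called 1.96% and 6.97% of all genes they tested. Their signs were negative in 7 and positive in 2, against 7724 and 7143 over all tested genes. At an unadjusted p of 0.05 Omp and Acer3 passed, at log2 fold changes of 1.07 and -0.64, where 17.8% of all tested genes did. Omp rested on 5 to 21 reads per library, and KPH2 1 was inside its KP range. The nearest tested genes, Emsy at 85.3 kb and Tsku on the other side at -127.9 kb, had log2 fold changes of -0.39 (edgeR adjusted p = 0.360) and -0.66 (edgeR adjusted p = 0.297).

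**Figure D5:**
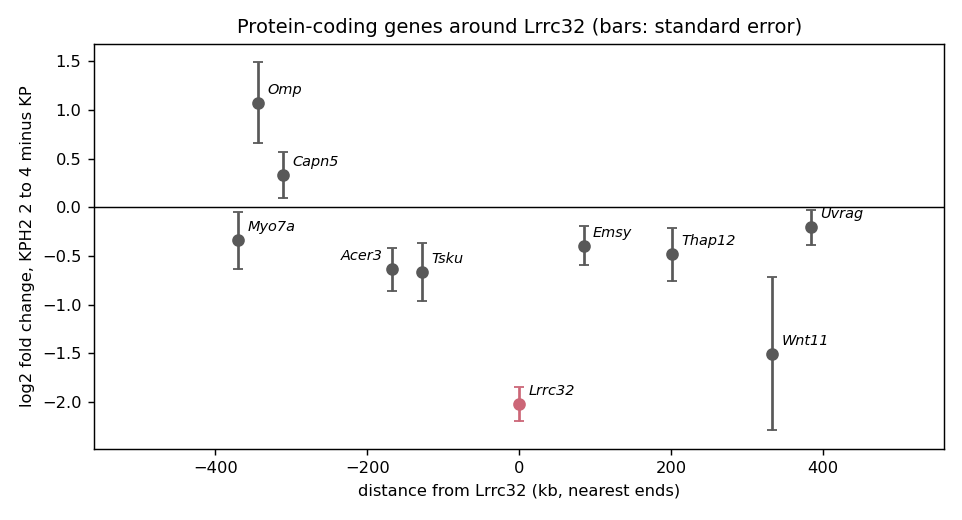
Log2 fold change, KPH2 2 to 4 minus KP, with its standard error, of the 9 tested protein-coding genes within 500 kb of Lrrc32, against their distance in kb. Lrrc32, chosen for its difference, is drawn at -2.02, and the 9 others run from Wnt11 at -1.50 to Omp at 1.07.

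The genes with the profile nearest to Lrrc32 over the 8 tumours were found by the root mean square difference of centred log2 CPM. They were the noncoding 4930481B07Rik at 0.259, LOC100861977 at 0.279, Il1rl2, a receptor of interleukin-36, at 0.305, the water channel gene Aqp1 at 0.353 and Atp8b4, a phospholipid transporter, at 0.369. In all 5 KPH2 1 lay below the KP tumours and above KPH2 2 to 4, as for Lrrc32, a pattern the measure itself selects. No member or other pathway gene was among them.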

How the data were processed

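RNA from 8 tumours, 4 KP and 4 KPH2, was analysed from the authors' processed files, with groups taken from the labels. A further allele that both groups share and 1 gene of the pathway lists are not reported here. Extraction used a Qiagen kit for fixed tissue. The authors deposited raw counts per RefSeq gene, without normalization, for which the submitters' processing notes name STAR 2.4, HTSeq 0.6.1 and GRCm38. They also deposited log2 values from the rlog transformation of DESeq2 1.6, which shrinks genes with few counts toward their mean. The strand setting of the counting is not given in the sources used here, and no column was left unused (0).

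Counts of KP 5 to 8 and KPH2 2 to 4 were fitted in R 4.3.3 with edgeR 4.0.16 (TMM normalization, filterByExpr with a minimum count of 10 and a minimum total of 15, robust quasi-likelihood test, no covariates). P-values were adjusted by the Benjamini-Hochberg method across the 14867 genes tested, at a threshold of 0.05. CPM values used TMM library sizes over all 8 tumours, and log2 profiles a prior count of 2. The script was tested on simulated data. Total counts ran from 6463221 to 13155510, and counting errors cover counting only. Labels do not say more of the tumours than their group, so p-values measure the spread between these samples.

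Named were the 10 members, Epas1, from each pathway list the genes past the threshold (or else the 2 with the smallest unadjusted p) and the most abundant gene, and the 5 nearest profiles. Other genes are named as chosen after their values were seen. The members and lists were chosen with earlier results of these data known. Alternatives were all 8 tumours, DESeq2 size factors, upper-quartile scaling, no filter, a mean count of at least 50, no robust estimates, a skeletal muscle score as covariate, DESeq2 1.42.0, the authors' rlog values and leaving out each tumour. DESeq2 over all 8 tumours was added after seeing the data. Promoter windows came from RefSeq for GRCm38.p6, and lengths from GENCODE. Figures were drawn with Python 3.11.15 and matplotlib 3.10.9.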

Additional observations from a re-analysis of the deposited data

Results flagged for a closer look

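Levels of the members and of the named pathway genes were examined for a tumour far from the other 3 of its group of 4, by Dixon's gap test at 95%, in 64 groups of 32 genes. It marked 10. The rate of about 5% holds for independent, normally distributed values. These genes share the same tumours and were partly named for their differences, so the 10 is not read against that rate. KP 5 was marked in 6 of these. It was high for Tgfbr3 (526 CPM), Ltbp1 (1127 CPM), Ltbp2 (1220 CPM) and the response gene Tgfbi (1586 CPM), and low for Tgfbr1 (149 CPM) and Epas1 (59.2 CPM). KPH2 1 was marked as low for Tgfb1 (19.0 CPM, against 47.8 to 48.1 CPM in KPH2 2 to 4) and as high for Tgfbr3 (399.8 CPM, against 91.5 to 111 CPM). The chaperone gene Hsp90b1 was high in KP 6 (975 CPM) and the endothelial receptor gene Acvrl1 in KP 7 (27.1 CPM on 183 reads), where the others lay within 25.1 to 25.4 CPM. Lrrc32 was not marked in either group. The cause of these values was not tested.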

How the results depend on the processing

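No paired analysis was possible because the replicate numbers, 1 to 4 in KPH2 and 5 to 8 in KP, are not shared. The log2 fold change of Lrrc32, -2.02, was -1.83 over all 8 tumours, -2.19 with the muscle covariate, -1.82 by DESeq2 over all 8 tumours, -1.20 in the authors' rlog values, which shrink differences by construction, and -2.14 to -1.92 without each tumour. Members past the threshold were 2 in the 7-tumour edgeR fit, 0 over all 8 tumours, 0 with the muscle covariate, 1 by DESeq2 over all 8 tumours and 1 to 2 without each tumour. Lrrc32, chosen for this contrast and so no evidence, is 1 of them in each of those fits with a count above 0, and the only other is Tgfbr3. Pathway genes past it were 4, 0 over all 8 tumours, 2 at a mean count of at least 50, 0 with the muscle covariate, 13 by DESeq2, 9 by DESeq2 over all 8 tumours, and 0 to 6 without each tumour (0 without KP 7, KPH2 2, KPH2 3 or KPH2 4, and 1 without KP 6 or KP 8). Over all genes the counts were 292, 1 over all 8 tumours, 3 with the muscle covariate, 1166 by DESeq2, 641 by DESeq2 over all 8 tumours and 55 to 349 without each tumour. Signs turned for Tgfb1 (-0.0875 over all 8 tumours by edgeR, -0.0836 by DESeq2), Tgfb3 (-0.72 with the muscle covariate, -0.30 to 0.48 without each tumour), Ltbp1 (-0.84 to 0.0593 without each tumour, positive without KP 5) and Ltbp3 (-0.21 with the muscle covariate), none of which passed the test in any fit. Tgfbr3 passed by DESeq2 at an adjusted p of 2.69e-05 over 7 tumours and not over all 8 (0.410). Other scalings moved the median of all genes by less than 0.1 on the log2 scale. The cause of these changes was not tested. Lrrc32 had as few as 76 reads in a library, which limits its precision to 11.5% there.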

Other observations

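Further genes of the pathway lists are given here, chosen after their values were seen. Ctgf, a matricellular response gene, was at 451, 181, 316 and 76.8 CPM across KP 5 to 8 and at 87.9, 84.8 and 59.8 CPM across KPH2 2 to 4, with 178 CPM in KPH2 1, inside the KP range, and a log2 fold change of -1.73 and an edgeR adjusted p of 0.148. DESeq2 called Ctgf over the 7 tumours and not over all 8. Lox, a collagen crosslinker, was lower in all KPH2 tumours than in all KP tumours, at a log2 fold change of -0.71 (edgeR adjusted p = 0.136). Bmp6, a ligand that also sets hepcidin in the liver, was at 14.1, 3.11, 3.26 and 6.79 CPM across KP 5 to 8 and at 1.62, 0.901 and 1.47 CPM across KPH2 2 to 4, with a log2 fold change of -2.37 (edgeR adjusted p = 0.0929) and a call by DESeq2 over the 7 tumours alone. KPH2 1 held 4.24 CPM of Bmp6, inside the KP range.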
